A study of Rattus norvegicus with 24 samples.

Results

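In the livers of neonatal rats given dexamethasone, 47 genes had at least 3 times the read share they had after vehicle. Their folds stayed within 1.5-fold of vehicle in the livers of desisobutyryl ciclesonide pups and in the lungs of dexamethasone pups. In lung 11 of the 47 were nearly silent, so for these the lung fold is not a measured steady level. The 47 were drawn from 30560 gene identifiers, of which 22954 had a count in any library. The members were selected on measured values of 3 contrasts: dexamethasone in liver, desisobutyryl ciclesonide in liver and dexamethasone in lung, each against vehicle. A gene's level was its counts per 1000000 gene counts of the library (CPM), averaged over the 4 libraries of a group, and its fold was the drug mean plus 0.5 CPM over the vehicle mean plus 0.5 CPM. A member had a mean of at least 10 CPM in liver with dexamethasone and a fold of at least 3 there, while its fold stayed within 1.5-fold of vehicle in either direction in liver with desisobutyryl ciclesonide and in lung with dexamethasone. Liver dexamethasone, liver desisobutyryl ciclesonide and lung dexamethasone values are therefore descriptions of how the genes were chosen, and no test is drawn from them.

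The animals were wild-type Sprague Dawley rat pups, and each received 5 daily injections under the skin from postnatal day 1. Control pups received the vehicle, 2.5% ethanol. The dexamethasone pups received 0.1 mg/kg of this synthetic glucocorticoid, and the third group received 1.25 mg/kg of desisobutyryl ciclesonide, the active metabolite of the inhaled glucocorticoid ciclesonide. Lung and liver were taken on day 6, 24 hours after the last injection, and RNA-seq was run on 4 libraries for each tissue and treatment, 24 in all. The drugs were given at different doses, so their values stand side by side here and make no comparison of the compounds. Litters are not named in the labels. A p-value here sets a difference between groups against the spread between single libraries, and it takes those libraries as independent.

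Glucocorticoids bind the glucocorticoid receptor, a transcription factor that moves to the nucleus and raises or lowers the transcription of its target genes. In liver they are known for raising enzymes of gluconeogenesis and of amino acid breakdown, and around birth they take part in the maturation of hepatocytes. In lung they are known for hastening structural maturation and surfactant production, which is why they are given to preterm infants. Which genes respond differs between tissues, in part because the chromatin that the receptor can reach differs.

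The files name genes by Ensembl identifier alone, and none of the 30560 identifiers matched the reference gene table used here, so no member is given a symbol, a function or a sequence, and the tissue labels were not checked against marker genes. Members are numbered 1 to 47 by their mean CPM in liver with dexamethasone. CPM is not divided by transcript length, so this order is one of read share. In these bulk tissues, fewer cells of a type and less RNA per cell cannot be told apart.

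The libraries held 15397992 to 27881158 gene counts, and 15958 to 19404 genes had a count in each. In the deposited sample names the desisobutyryl ciclesonide libraries are numbered in a series of their own, so that library series and this drug cannot be told apart. Entries that the counting assigned to no gene made up 16.8% to 19.3% of the liver desisobutyryl ciclesonide libraries and 21.8% to 22.7% of the liver vehicle libraries; in lung the shares were 22.6% to 23.9% and 26.4% to 27.7%. The dexamethasone libraries held 22.3% to 22.8% in liver and 28.6% to 31.8% in lung, so in lung both drugs stood apart from vehicle, in opposite directions; the part of this in the results was not tested.

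The liver conditions alone were met by 279 genes. Of these, 154 stayed within the band with desisobutyryl ciclesonide in liver, 114 lay above it and 11 below. Among the 154, the lung dexamethasone fold was within the band for the 47 members, above it for 92 genes and below it for 15.

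The liver gains of the members ran from 3.04-fold to 61.9-fold, with a median of 4.66. Most were moderate: 20 members lay between 3-fold and 4-fold, 14 between 4-fold and 6-fold, 10 between 6-fold and 10-fold, and 3 at 10-fold or more. Mean levels in liver with dexamethasone ran from 10.4 to 3653 CPM, with a median of 53.7. The other 232 liver gains had a median fold of 5.35 and a median level of 67.1 CPM. Plain CPM placed the median tested liver gene at a log2 change of -0.23 with dexamethasone, against a median of 2.22 for the members. After scaling by trimmed mean of M-values (TMM) factors the values were -0.02 and 2.49, and the members' median fold was 5.61.

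Together the members took 2815, 2767, 2871 and 2770 CPM in the 4 liver vehicle libraries, a mean of 2806 ± 48.8 CPM (SD, n = 4). The dexamethasone livers gave 10588, 13804, 9577 and 12039 CPM, a mean of 11502 ± 1838 (SD, n = 4). With desisobutyryl ciclesonide the sums were 3522, 3215, 2585 and 4274 CPM, a mean of 3399 ± 702 (SD, n = 4). The lowest dexamethasone liver was above the highest library of the other liver groups, while the vehicle and desisobutyryl ciclesonide livers overlapped. In lung the sums were 2122 ± 80.6 CPM with vehicle, 2484 ± 146 with dexamethasone and 2288 ± 113 with desisobutyryl ciclesonide (SD, n = 4 each). Because members 1 and 2 carry much of the liver sum, it was also taken without them: it was then 1224 ± 88.4 CPM with vehicle, 5586 ± 705 with dexamethasone and 1412 ± 337 with desisobutyryl ciclesonide (SD, n = 4 each).

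**Figure D1:**
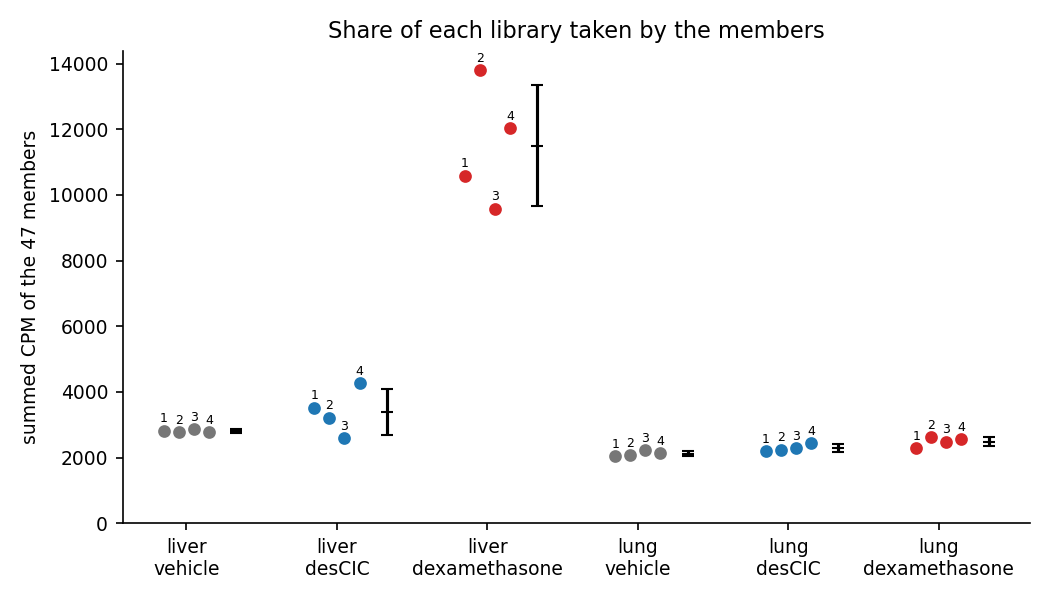
Summed CPM of the 47 members in each of the 24 libraries, by tissue and treatment; points are libraries with their replicate numbers, bars mark group means with SD, and desCIC stands for desisobutyryl ciclesonide. The 4 dexamethasone livers lie between 9577 and 13804 CPM, above all other libraries.

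Member by member, the dexamethasone livers mostly stood clear of the others. In 43 of the 47 all 4 dexamethasone livers were above all 4 vehicle livers, a pattern that 12.4% of the 13734 genes tested in liver showed. In 42 they were above all 8 other livers, which 8.54% of tested genes showed. In 23 the lowest dexamethasone liver was at least 2-fold above the highest of the other 8, a count taken for the members alone. All 47 passed the liver dexamethasone test of edgeR (adjusted p under 0.05) as higher, beside 22.5% of tested genes; the rule chose them on this contrast, so nothing is read from these counts.

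Member 1, ENSRNOG00000010478, had the highest level. Its vehicle livers held 1085, 853, 959 and 840 CPM, its dexamethasone livers 3606, 3648, 3013 and 4342 CPM, and its desisobutyryl ciclesonide livers 1872, 1100, 716 and 1805 CPM. Every dexamethasone liver was above every other liver, and the fold was 3.91. The desisobutyryl ciclesonide livers spread on either side of the vehicle livers, and their fold of 1.47 is close to the edge of the band. With TMM-scaled CPM the fold passed that edge. In lung the gene was nearly silent, with means of 0.0462 CPM with vehicle, 0.219 with dexamethasone and 0.650 with desisobutyryl ciclesonide. The drug means each rest on 1 library: without dexamethasone lung replicate 3, at 0.724 CPM, the mean was 0.0504, and without desisobutyryl ciclesonide lung replicate 2, at 2.37 CPM, it was 0.0760.

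Member 35, ENSRNOG00000042634, had the highest fold. The vehicle livers held 0, 0, 0.167 and 0.0575 CPM, 4 counts in all, and the dexamethasone livers 20.2, 31.5, 38.2 and 45.8 CPM, 2593 counts in all. The desisobutyryl ciclesonide livers stayed at 0.116, 0.0575, 0.234 and 0.382 CPM. This gene went from near the detection limit to a clear level in every dexamethasone liver and in no other liver. The rule's fold of 61.9 is held down by the added 0.5 CPM. The ratio of the summed counts, each taken over its group's total gene counts, was 603. Its 95% exact interval of 235 to 2214 covers counting error only and leaves out the spread between animals. The gene was picked for the highest fold on a contrast the rule used, so ratio and interval are descriptions and no test. Lung held no count of it with vehicle or desisobutyryl ciclesonide and 2 counts with dexamethasone.

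The other 2 members past 10-fold were members 34 and 19. Member 34 had 2.15, 1.54, 1.73 and 3.05 CPM in vehicle livers and 56.2, 28.3, 22.7 and 29.7 in dexamethasone livers, a fold of 13.3. Member 19 had 7.65, 12.6, 5.85 and 10.8 CPM with vehicle and 94.6, 119, 91.3 and 128 with dexamethasone, a fold of 11.2. In both, every dexamethasone liver was above every other liver. The place of member 19 rests on 1 vehicle lung: vehicle lungs held 11.7, 13.8, 131 and 15.5 CPM and dexamethasone lungs 18, 37.3, 74.8 and 95.8, so that its lung fold of 1.31 was 4.02 without vehicle lung replicate 3, far outside the band. Member 7 followed at 9.16-fold, with 33.8, 31.5, 28.6 and 52.9 CPM in vehicle livers and 202, 416, 340 and 402 in dexamethasone livers.

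Among the abundant members, member 4 was the most even. Its dexamethasone livers held 629, 631, 674 and 672 CPM, a mean of 651 ± 24.9 (SD, n = 4), against 113, 102, 117 and 109 CPM with vehicle, a fold of 5.88. Its coefficient of variation over the dexamethasone livers was 3.82%. Member 3 had 188, 186, 227 and 253 CPM with vehicle and 798, 715, 975 and 766 with dexamethasone, again without overlap. Member 2 was less even: vehicle livers held 599, 708, 698 and 586 CPM and dexamethasone livers 1941, 3577, 1433 and 2102, so that replicate 2 was well above the rest.

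**Figure D2:**
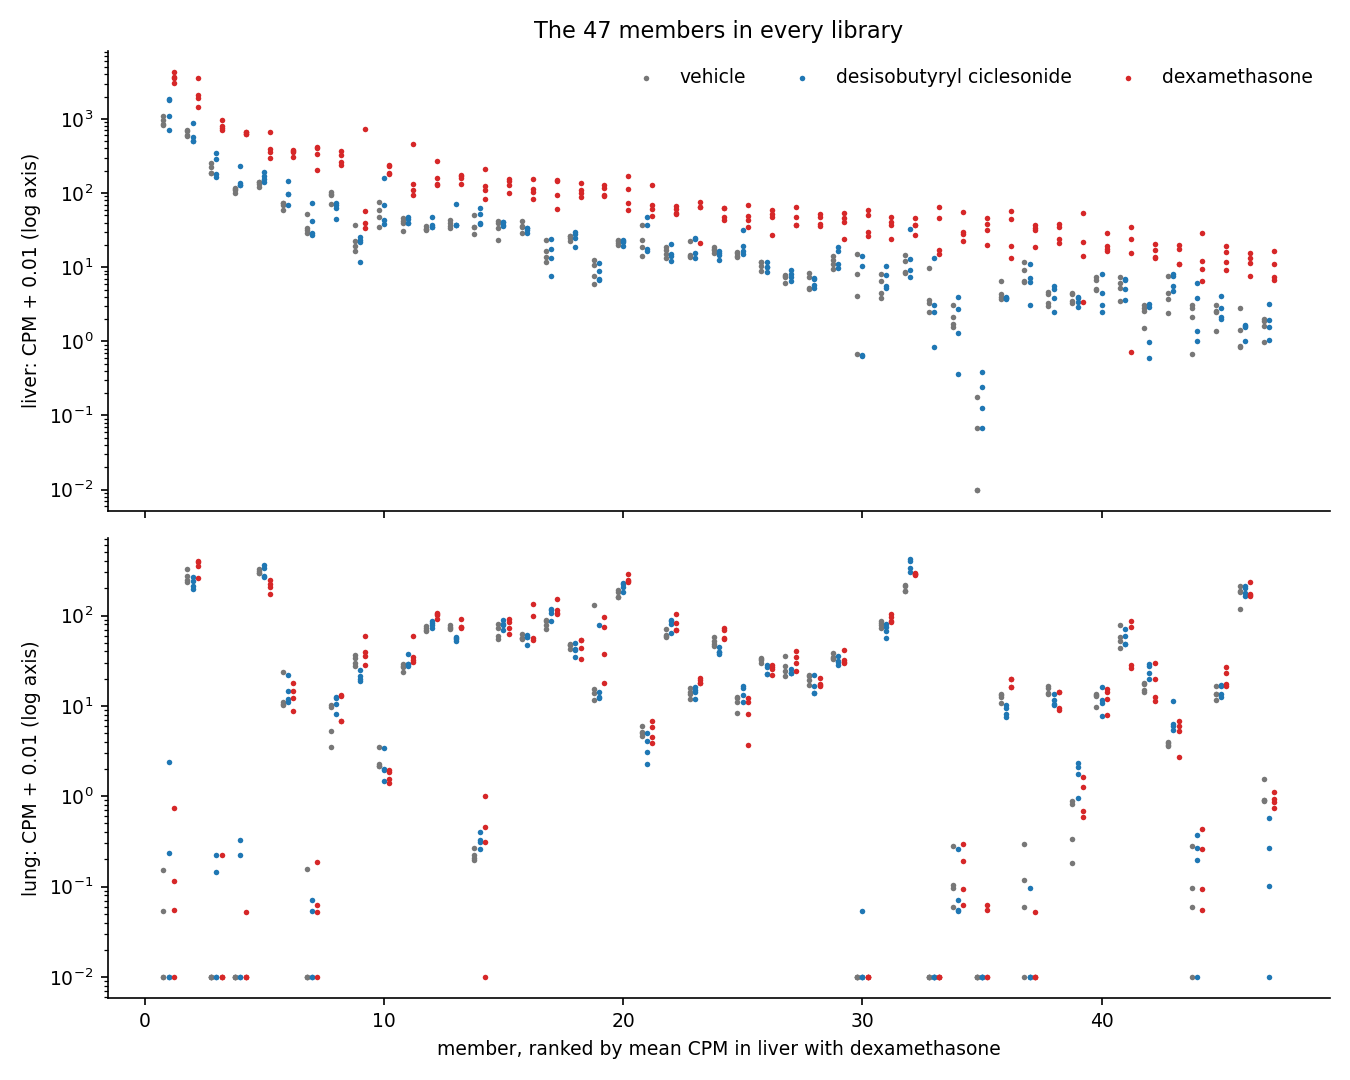
CPM + 0.01 on a log axis for each member (horizontal axis, by rank of level in liver with dexamethasone) in every liver library (upper panel) and lung library (lower panel), coloured by treatment; each point is a library. The dexamethasone livers lie above the other 8 livers in 42 of the 47 members, and single low or high dexamethasone points are seen in members 9, 11 and 41.

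The levels of the members varied between the dexamethasone livers, and how much of this is response to the drug was not tested. The coefficient of variation over the 4 libraries ran from 3.82% to 160% with a median of 29.3%, beside a median of 24.7% over the vehicle livers and 31.6% for the other 232 liver gains. It was over 50% in 7 members and under 20% in 12. In 23 members each dexamethasone liver was at least 3-fold over the vehicle mean; in 11 members 3 livers were, in 9 members 2 were, and in 4 members only 1 was. Replicate 2 was the highest dexamethasone liver for 19 members and replicate 4 for 16, while replicates 1 and 3 were highest for 6 each.

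Some memberships rested on replicate 2. Member 9 had 56.6, 730, 39.6 and 33.8 CPM in dexamethasone livers and 19.2, 16.8, 22.5 and 36.9 in vehicle livers, so that its fold of 8.85 was 1.80 without replicate 2. Member 11 had 93.3, 453, 111 and 131 CPM with dexamethasone and 39.5, 42.1, 31.1 and 45.4 with vehicle, and its fold of 4.93 was 2.80 without that library. Without replicate 2 the fold of 8 members fell under 3 (members 2, 8, 9, 11, 14, 16, 21 and 40), the mean of 1 more fell under 10 CPM, and 38 of the 47 kept their place.

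Replicate 2 was instead the lowest dexamethasone liver in other members. Member 39 had 53.1, 3.35, 21.9 and 14.0 CPM with dexamethasone and 4.42, 3.30, 4.34 and 3.51 with vehicle. Member 41 had 15.7, 0.702, 24.1 and 34.8 CPM with dexamethasone and 6.16, 3.47, 7.46 and 5.23 with vehicle. Member 23 had 64.2, 21.0, 75.3 and 64.5 CPM with dexamethasone, and its highest vehicle and desisobutyryl ciclesonide livers held 22.5 and 24.8 CPM. In these members 3 dexamethasone livers were clear of the other livers and replicate 2 was not. Together with members 9 and 32 they are the 5 whose dexamethasone livers overlapped another liver group.

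With desisobutyryl ciclesonide the liver folds ran from 0.680 in member 8 to 1.49 in member 6, with a median of 1.08. The mean was above vehicle for 27 members and below it for 20. In 2 members all desisobutyryl ciclesonide livers were above all vehicle livers, beside 5.16% of tested liver genes, and in 0 were all below, beside 9.47%. By edgeR's quasi-likelihood test 0 of the 47 were called (5 had an unadjusted p under 0.05, and DESeq2 called 1), beside 4.52% of tested liver genes; the rule bounded this contrast, so the count says nothing further. Replicate 4 was the highest of the 4 livers in 26 members, with a median log2 deviation of 0.31 from the group, and the median fold was 0.997 without it. Member 4 shows the pattern, with 137, 129, 129 and 233 CPM. The high values were not particular to the members: for the other 232 liver gains the same library had a median deviation of 0.43. It also held the most gene counts of the liver libraries, 26194384.

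In lung the members fell into very different levels. Of the 47, 11 stayed under 1 CPM in every lung group, 5 reached 1 to 10 CPM and 31 reached 10 CPM or more. The 11 nearly silent in lung carried 50.3% of the members' summed CPM in dexamethasone livers and had a median liver fold of 5.57; the 31 well detected in lung carried 46.8% and had a median of 4.26. Member 1 gave most of the first share: without it the other 10 carried 27.1% of the remaining sum. The median dexamethasone liver level was 41.1 CPM for the 11 and 56.2 CPM for the 31. For the 11, a lung fold near 1 comes from the added 0.5 CPM and not from a measured steady level. One of them had no count in any lung library, and the most counted had 88 counts over the 12 lung libraries.

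In vehicle animals, 25 members had a higher mean in lung than in liver; in 23 every lung library was above every liver library, and in 18 every lung library was below. Of the 16597 genes tested in either tissue, 71.7% lay wholly above in lung and 10.7% wholly below; the rule set a minimum liver level for members alone, so the shares are side by side as a description. CPM was not scaled between the tissues, so their levels are set side by side as read shares. In 19 of the 25 the dexamethasone liver mean passed the lung vehicle mean, and in 6 it stayed below. Member 32 shows the latter case: it held 12, 8.54, 8.24 and 14.4 CPM in vehicle livers and 37.4, 45.7, 27.4 and 37.6 in dexamethasone livers, while vehicle lungs held 186, 218, 187 and 210.

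**Figure D3:**
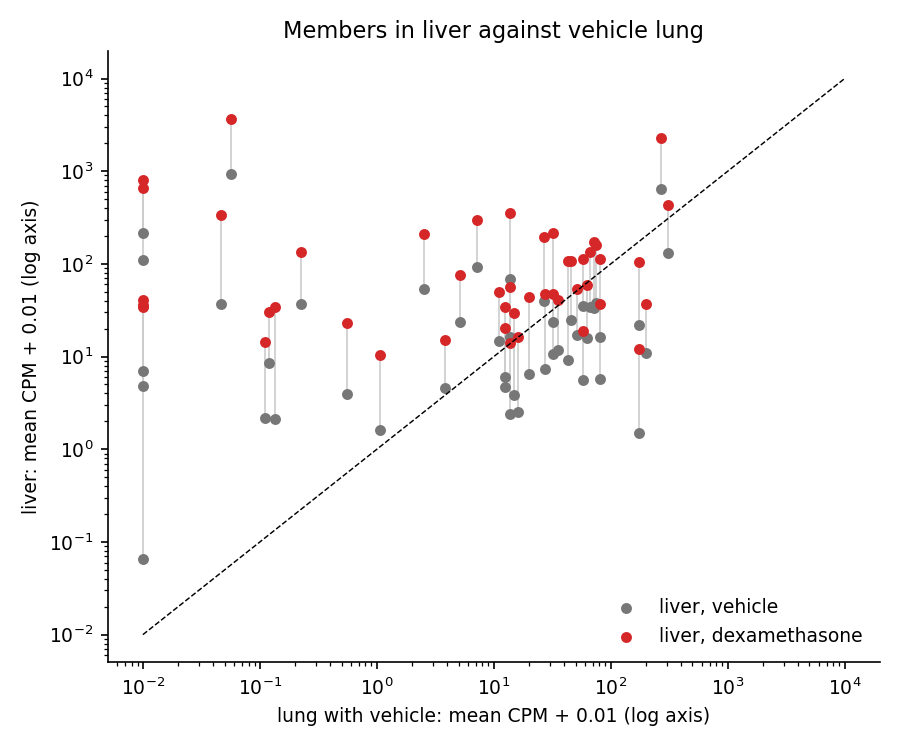
Mean CPM + 0.01 of each member in liver, with vehicle (grey) and with dexamethasone (red), against its mean CPM + 0.01 in vehicle lung. Both axes are log. A line joins the 2 liver values of a member, and the dashed line marks equal CPM, which was not scaled between the tissues. Of the 25 members whose vehicle mean was the higher one in lung, 19 pass the dashed line with dexamethasone and 6 stay below it.

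Lung dexamethasone folds of the members ran from 0.691 to 1.49 with a median of 1.13, and 32 means were above vehicle, 13 below and 2 equal. Of 36 members that passed the low-count filter in lung, edgeR called 13 higher, beside 26.9% of tested lung genes, and 1 lower, beside 28.7%; the rule bounded this contrast, and nothing is read from these calls. The lower one was member 5. Vehicle lungs held 294, 293, 325 and 314 CPM of it and dexamethasone lungs 209, 171, 244 and 221, without overlap. In liver it went the other way, from 119, 140, 139 and 131 CPM to 668, 295, 356 and 393. Member 36 had 13.3, 10.8, 12.5 and 13.6 CPM in vehicle lungs and 16, 19.6, 19.7 and 16.1 in dexamethasone lungs.

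The lungs of desisobutyryl ciclesonide pups were the only drug libraries that the rule did not use, although the vehicle lungs they are set against were. Of the 36 members tested there, edgeR's quasi-likelihood test called 9 at an adjusted p under 0.05, or 25%, beside 24.1% of all 16108 genes tested. By direction 6 rose, beside 11.8% of tested genes, and 3 fell, beside 12.3%. The members' share called was near that of lung genes in general. Their median log2 change was 0.05, that of all tested genes -0.01, and 30 of the 36 lay within 1.5-fold of vehicle. The 95% interval of a member's log2 change, not adjusted for the number of genes, had a median half-width of 0.35 (0.21 to 2.17). The half-width is not a limit for the calls, which use an adjusted p. Member 13 was called at -0.33, while member 42 at 0.72 was not, so a member not called may still have changed.

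Member 32 had the lowest adjusted p of the 9, and is described for that reason, chosen after its values were seen. Vehicle lungs held 186, 218, 187 and 210 CPM and desisobutyryl ciclesonide lungs 303, 333, 399 and 423, without overlap. Its log2 change was 0.96 (SE 0.11, edgeR adjusted p = 0.000151), and it was called in all 13 alternative fits, with adjusted p from 1.41e-13 to 0.000992. Dexamethasone lungs held 281, 288, 297 and 290 CPM, also above all vehicle lungs. In the liver its desisobutyryl ciclesonide libraries held 7.30, 9.26, 12.8 and 32.8 CPM, of which replicate 4 alone was above the vehicle livers.

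The largest rises belonged to members 39 and 43, both low in lung. Member 39, ENSRNOG00000062766, had 0.802, 0.879, 0.323 and 0.173 CPM in vehicle lungs and 1.73, 0.948, 2.32 and 2.08 with desisobutyryl ciclesonide, a log2 change of 1.77 (SE 0.52, edgeR adjusted p = 0.0264). Member 43, ENSRNOG00000046195, had 3.92, 4.01, 3.71 and 3.55 CPM and 5.97, 11.3, 5.37 and 6.25 CPM, a log2 change of 1.03 (SE 0.29, edgeR adjusted p = 0.0206). Neither pair of groups overlapped. Over 13 alternative fits member 39 was called in 9, with adjusted p from 0.00625 to 0.0757, and member 43 in 10, with adjusted p from 0.00335 to 0.0688. The other members that rose were 17, 22 and 20, by 0.48, 0.46 and 0.36 on the log2 scale.

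The largest falls belonged to members 47 and 36. Member 47, ENSRNOG00000064277, had 0.897, 0.879, 1.56 and 0.910 CPM in vehicle lungs and 0.0911, 0.259, 0 and 0.568 with desisobutyryl ciclesonide, a log2 change of -2.11 (SE 0.63, edgeR adjusted p = 0.0282). Member 36, ENSRNOG00000003634, had 13.3, 10.8, 12.5 and 13.6 CPM and 9.39, 7.50, 10.3 and 8.21 CPM, a log2 change of -0.41 (SE 0.14, edgeR adjusted p = 0.0485). Neither pair of groups overlapped. Member 47 was called in 7 of 13 alternative fits (adjusted p 0.00399 to 0.0804) and member 36 in 4 (0.0361 to 0.120). Member 13 fell by 0.33. Of the 9 called members, 5 were also called in lung with dexamethasone, 4 of them in the same direction. This count was taken for the members alone and on a contrast the rule bounded, so nothing is read from it. Without vehicle lung replicate 3 the only member called was member 32. Leaving out each of the other 7 lungs in turn, 3 to 6 members were called, of which 3 to 6 were among the 9; members 12 and 42, outside the 9, were called without desisobutyryl ciclesonide lung replicate 1.

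**Figure D4:**
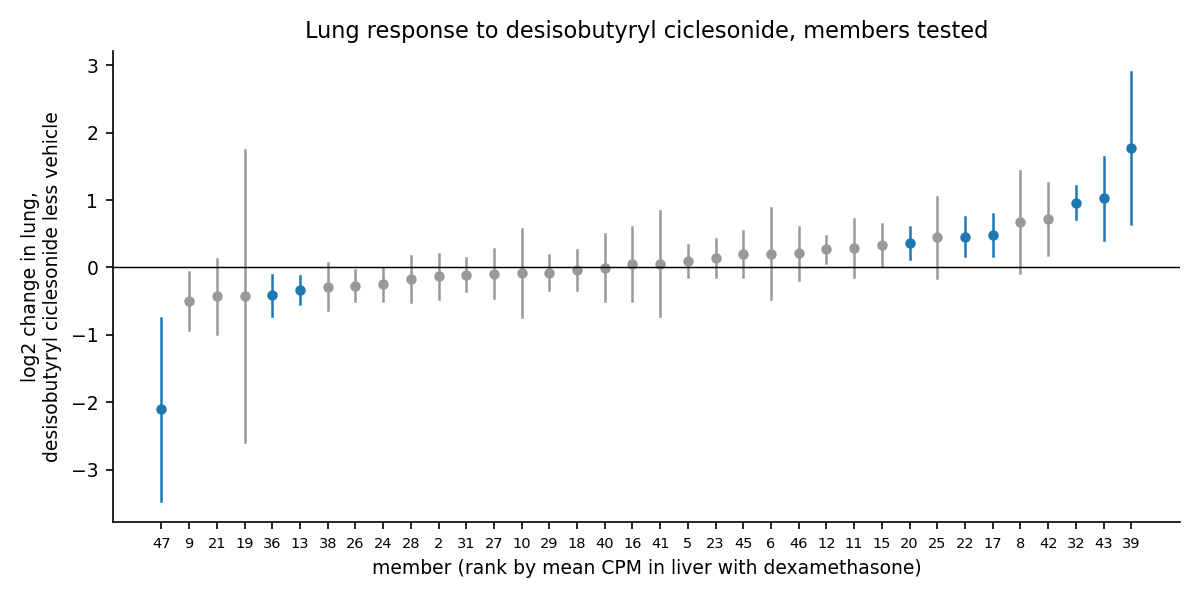
Log2 change with desisobutyryl ciclesonide in lung for the 36 members tested, with 95% intervals. The intervals were built from edgeR's log2 change and F statistic, with the same multiplier for all members, so they can differ from a member's own test. Members called at an adjusted p under 0.05 are marked. The intervals of 6 called members lie above 0 and those of 3 below; member 19 has the widest interval.

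Beside the members stand the 92 genes with the same liver behaviour whose lung fold was above the band. Among genes with at least 1 CPM in lung, the median lung fold with desisobutyryl ciclesonide was 0.971 for 36 members and 1.40 for 89 of those genes, and with dexamethasone 1.17 and 3.13. The median liver dexamethasone fold was 4.24 in both sets. The difference in lung was not tested, since the sets were split on lung values that share the same vehicle libraries.

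Over the 24 libraries the members did not follow a single pattern. The correlation of a member's log2(CPM + 0.5) with the mean of the others ran from -0.41 to 0.98, with a median of 0.61. The 5 genes outside the set most like the members' mean had Pearson r of 0.973, 0.970, 0.969, 0.968 and 0.964. In the same order their liver dexamethasone folds were 83.3, 258, 14.6, 11.3 and 25.5. Their liver desisobutyryl ciclesonide folds were 3.76, 3.81, 0.712, 0.547 and 1.62, in the band only for the gene at 0.969. That gene had a lung dexamethasone fold of 1.61, so each of the 5 left a band of the rule. The points of these correlations share tissue, treatment and library, and the values are descriptions.

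Several genes sat near the edges of the rule. The members nearest the fold threshold had 3.04, 3.06 and 3.18, and the genes just outside it 2.95, 2.87 and 2.83. At the level threshold the nearest members had 10.4, 12 and 14.1 CPM and the genes just outside 9.97, 9.62 and 9.13. The upper edge of the liver desisobutyryl ciclesonide band had 1.49, 1.47 and 1.44 inside and 1.53, 1.57 and 1.62 outside, and its lower edge 0.680, 0.771 and 0.804 inside and 0.645, 0.636 and 0.622 outside. For lung dexamethasone the upper edge had 1.49, 1.49 and 1.47 inside and 1.54, 1.54 and 1.55 outside, and the lower edge 0.691, 0.725 and 0.796 inside and 0.637, 0.634 and 0.619 outside.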

How the data were processed

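Raw counts per gene were deposited by the authors, 1 file per library; per the submitters' processing notes cutadapt, HISAT2, HTSeq and the build mRatBN7.2 were used. Their settings and strand handling are not given in the sources used here, so reads of overlapping, antisense or near-identical genes may be split or shared. The 5 summary rows of each file were left out of totals. CPM was count over summed gene counts. Members and lists were chosen with earlier results of these data known. Tests used edgeR 4.0.16 in R 4.3.3, with the quasi-likelihood test, TMM factors, a low-count filter and all libraries of a tissue in 1 fit. P-values were adjusted by Benjamini-Hochberg over all tested genes. DESeq2 1.42.0 was an alternative. The edgeR steps were also run on simulated counts, with fewer libraries than the real fits and 1 spread for all genes. That run cannot show how the calls behave at the spread of these data. Named members were those highest in level, fold or variability, those at each threshold, and up to 8 called in lung with desisobutyryl ciclesonide by size of log2 change; members shown for a single unusual library, and member 32 in detail, were chosen after their values were seen. Identifiers are printed for at most 2 in each direction of a comparison. Planned gene lists, markers and promoter motifs could not be applied because 0 of 30560 identifiers matched the 47357 reference genes. Counting intervals cover counting error only.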

Additional observations from a re-analysis of the deposited data

Results flagged for a closer look

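Each group of 4 libraries was examined for 1 library standing apart, by the gap to its nearest neighbour over the group's range. Among 244 pairs of member and group with a mean of at least 1 CPM, 18 stood apart, where chance gives about 1 in 20, or 12.2. In liver with dexamethasone these were member 9 (ratio 0.967) and member 11 (0.894), both with replicate 2 high. In liver with desisobutyryl ciclesonide they were member 4 (0.924), member 13 (0.984) and member 46 (0.846), and in liver with vehicle member 23 (0.876) and member 33 (0.837). Lung with vehicle gave member 6 (0.941), member 10 (0.929), member 19 (0.968) and member 47 (0.955). Lung with dexamethasone gave member 11 (0.859), member 13 (0.908) and member 46 (0.851), and lung with desisobutyryl ciclesonide member 11 (0.832), member 19 (0.973), member 27 (0.900) and member 43 (0.852).

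In 6 members every drug library lay on 1 side of the vehicle mean in liver and on the other side in lung; the difference between tissues was not tested. With dexamethasone 5 members were above in liver and below in lung, beside 3.77% of the 13245 genes tested in both tissues, and with desisobutyryl ciclesonide 1 was below in liver and above in lung, beside 2.91%. With dexamethasone the mean differences from vehicle in liver and lung were 295.6 and -94.8 CPM for member 5, 155.6 and -0.830 for member 10, 36.1 and -6.44 for member 26, 21.8 and -0.0993 for member 37, and 25.9 and -3.14 for member 38. The liver sign in these is set by the rule. Member 37 had 9 counts over the vehicle lungs and 1 over the dexamethasone lungs, near the limit of detection. It did not pass the low-count filter in lung, so it is counted among the 5 but is not among the 13245 genes. With desisobutyryl ciclesonide member 8 differed by -29.6 CPM in liver and by 3.60 in lung.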

How the results depend on the processing

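Membership depended on the thresholds: a fold of 2 or more gave 171 genes, a fold of 4 or more 27, a band of 1.25 gave 19 and a band of 2 gave 113. Leaving out 1 library gave 41 to 60 genes with 38 to 46 of the 47, and 19 members were in all 20 such lists. With TMM-scaled CPM 67 genes met the rule and 36 of the 47 were kept. Of the 11 lost, 8 passed above the lung dexamethasone band (members 11, 12, 16, 17, 20, 32, 39 and 45). Above the liver desisobutyryl ciclesonide band were 4 (members 1, 6, 10 and 32), so member 32 left both bands. Member 1, the most abundant, had TMM-scaled means of 876 CPM in vehicle livers and 1330 CPM in desisobutyryl ciclesonide livers. In liver with desisobutyryl ciclesonide 621 genes were called, 1154 by DESeq2 and 295 to 482 with 1 library left out; members called were 0, 1 by DESeq2 and 0 to 1. In lung with desisobutyryl ciclesonide 3884 genes and 9 members were called, and with 1 library left out 2564 to 3366 and 1 to 6; the cause was not tested beyond fewer libraries. No direction reversed among the 9 called members.

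Replicate numbers recur across groups, but same-numbered libraries within a tissue correlated at -0.26 to 0.34, not over 0.1 in every pair, so the numbers were not taken as pairs; whether some libraries share a litter is not known. With a replicate block 3697 genes and 10 members were called in lung with desisobutyryl ciclesonide, 442 and 0 in liver with it, 6177 and 44 in liver with dexamethasone, and 8932 and 13 in lung with dexamethasone. The counts of listed genes called were not run, because the identifiers have no symbols.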
